A study of Bos taurus with 44 samples.

Results

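Gene expression after IVF-ET (an embryo fertilised in vitro and transferred to the uterus) was set against that after artificial insemination (AI) in caruncular and in intercaruncular tissue of cattle, and the difference between the effects of IVF-ET in the 2 areas was estimated probe by probe. All 20 arrays that carried RNA of an IVF-ET and an AI animal were used, 10 of each area, out of 44 arrays in all. Each array held the RNA of 1 IVF-ET animal in one dye and of 1 AI animal in the other, and per area the arrays closed a loop in which each animal was hybridised once in Cy3 and once in Cy5. The same 5 IVF-ET animals were used in both areas. Of the 7 AI animals, 3 were used in both areas (animals 1 to 3), animals 4 and 5 in the caruncular loop and animals 6 and 7 in the intercaruncular loop. The labels give the area, the group and an animal number, and no age, breed, day of collection or treatment.

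In ruminants the uterine lining is divided into caruncles, raised areas without glands where the placenta attaches, and the intercaruncular tissue between them, which holds the glands. The glands feed the early conceptus through their secretions. Insulin-like growth factors (IGFs) act on the uterine lining and on the conceptus, and a family of IGF-binding proteins holds them in the tissue or keeps them from their receptor. Before attachment the ruminant trophoblast secretes interferon tau, which switches on interferon-stimulated genes in the uterus.

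All values are log2 ratios turned to IVF-ET over AI. A difference is the caruncular effect minus the intercaruncular effect: below 0, IVF-ET tissue was lower against AI tissue in the caruncles than between them. The order of the dyes in the ratio is not stated in the labels. The ratio was read as Cy5 over Cy3, since on that reading ISG15 lay above 0 on 10 of 10 arrays that set nuclear transfer (SCNT) samples against CJ samples, which the labels call cycle (median 4.64) and OXTR below 0 on 10 of 10 (median -3.63). On the arrays of AI against CJ samples ISG15 lay above 0 on 7 of 10 (median 3.32), below it on 3, and OXTR below 0 on 10 of 10 (median -2.73). Higher ISG15 and lower OXTR are known of ruminant pregnancy. Were it Cy3 over Cy5, all signs given here would be the opposite. The arrays hold ratios only, and the areas never met on an array, so the level of an area marker could not be set between the areas.

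The 2 loops differed in spread, and some arrays stood apart in one way or another. The SD of the ratios of an array was 0.221 to 0.494 over the caruncular and 0.324 to 0.620 over the intercaruncular arrays. The widest caruncular array, that of IVF-ET animal 3 and AI animal 3, had 114 probes below -2 and 0 above 2, and 85 of the 114 lay in a stretch of 288 consecutive probes. Without it, the caruncular SDs were 0.221 to 0.307. The widest intercaruncular array was that of IVF-ET animal 2 and AI animal 2 (SD 0.620), and that of IVF-ET animal 5 and AI animal 6 had 967 probes below -1 and 69 above 1. Both intercaruncular arrays of IVF-ET animal 1 carried large and opposite ratios in interferon-stimulated genes: ISG15 was 3.35 against AI animal 7 and -4.77 against AI animal 1, whereas the other intercaruncular arrays lay between -0.24 and 2.61. Since each animal is once in each dye, the Cy5 over Cy3 ratios of a loop sum to 0 apart from dye effects and noise. For ISG15 they summed to -0.26 in the caruncular loop, where this sum had an SD of 1.15 over all probes, and to -5.79 in the intercaruncular loop, where the SD was 2.26. The array titles run in 1 series of numbers per area, so the area and the run of arrays cannot be told apart.

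**Figure D1:**
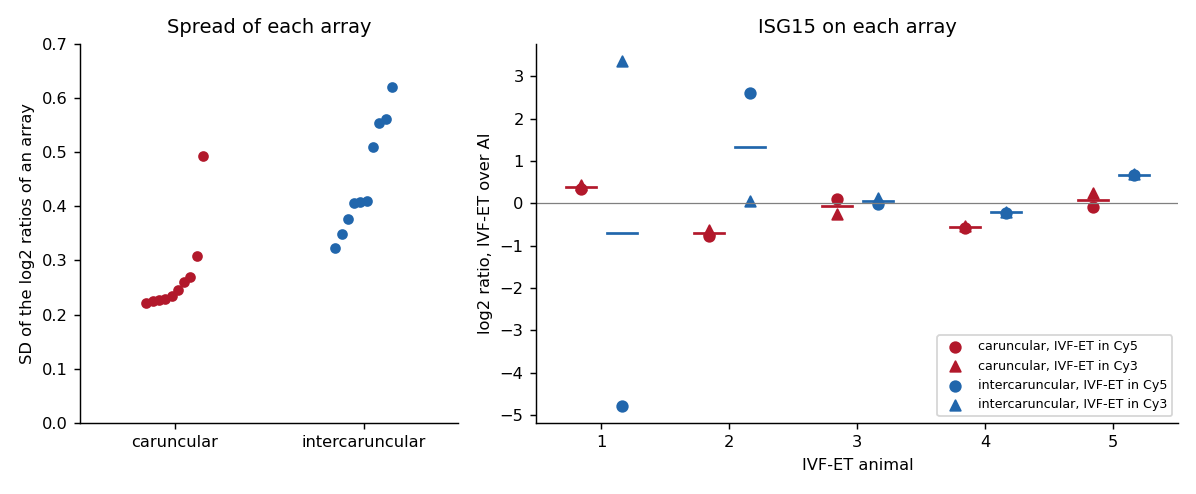
Left, the SD of the log2 ratios of each array, with 10 caruncular arrays (red) left of 10 intercaruncular arrays (blue). Right, the log2 ratio of ISG15, IVF-ET over AI, on each array by IVF-ET animal; circles and triangles mark the dye of the IVF-ET sample and bars the mean of 2 arrays. The caruncular ISG15 ratios lie between -0.77 and 0.42, and the 2 intercaruncular ratios of animal 1 at 3.35 and -4.77.

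One probe of the 13824 tested passed the threshold for the difference, an adjusted p under 0.05, which is 0.00723% of them. It was that of IGFBP2, a secreted protein that binds both IGFs. In the caruncles the ratio of IGFBP2, IVF-ET over AI, was -0.12 and -0.32 for IVF-ET animal 1, -0.46 and 0.28 for animal 2, -0.01 and 0.11 for animal 3, 0.17 and -0.27 for animal 4, and -0.60 and -0.24 for animal 5. Between the caruncles it was 0.94 and 0.36 for animal 1, 0.66 and 1.39 for animal 2, 1.15 and 1.57 for animal 3, 0.90 and 0.73 for animal 4, and 0.41 and 0.58 for animal 5. The 10 caruncular ratios lay on both sides of 0, the 10 intercaruncular ratios all above it, and the lowest intercaruncular ratio (0.36) was above the highest caruncular one (0.28). IGFBP2 was the one probe of 13824 (0.00723%) whose ratios did not overlap between the areas.

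The fitted effect of IVF-ET on IGFBP2 was -0.15 ± 0.11 in the caruncles and 0.87 ± 0.11 between them (SE, limma, adjusted p = 1.0 and 0.000575 over all probes). The difference was -1.01 ± 0.15, with a 95% interval of -1.33 to -0.70 and a limma adjusted p of 0.0125, so that the ratio of IVF-ET to AI was 2.02-fold lower in the caruncles. Per IVF-ET animal, the difference was -0.87, -1.11, -1.31, -0.86 and -0.91. It was below 0 in 5 of 5 animals, as it was for 4.26% of all probes. All 10 pairs of arrays that share the IVF-ET animal and the dye had the lower ratio in the caruncles. Both counts follow from the ratios not overlapping between the areas. In the 6 pairs that share both animals, the difference ranged from -1.46 to -0.67 with a mean of -1.04. The fit on these pairs alone did not keep the call (limma adjusted p = 0.694). The 2 spots of the probe gave -1.02 and -1.01, and the ratios of IGFBP2 summed round the loop to 0.58 in both areas.

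The size of this difference held when animals were left out, and its call did not. Leaving out each of the 12 animals in turn gave differences of -1.09 to -0.94, and the adjusted p stayed under the threshold without IVF-ET animal 1, AI animal 6 or AI animal 7 and was 0.0713 to 0.193 without each of the other 9. With 1 value per IVF-ET animal (replicate block) the difference was -1.01 with an adjusted p of 0.0711. Without the intercaruncular arrays of IVF-ET animal 1 it was -1.07 (adjusted p = 0.0104), and without the widest caruncular array -1.04 (adjusted p = 0.0197). Without the intercaruncular array of IVF-ET animal 2 and AI animal 2 it was -0.96 (adjusted p = 0.0311) and without that of IVF-ET animal 5 and AI animal 6 it was -1.06 (adjusted p = 0.0093).

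**Figure D2:**
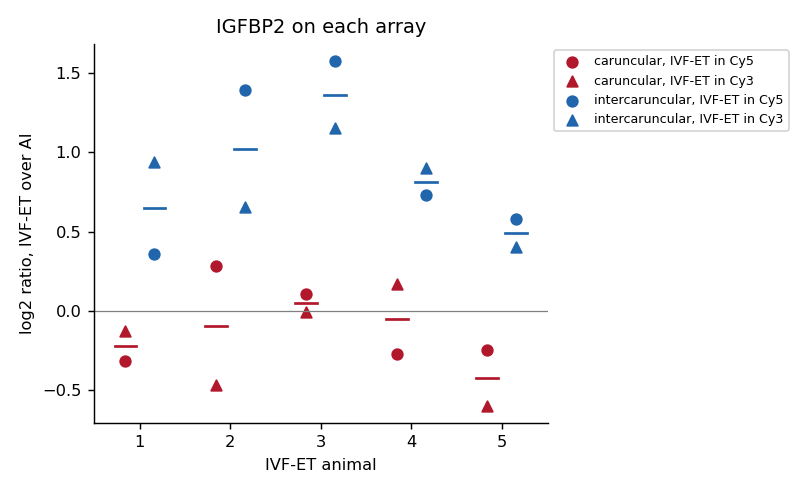
IGFBP2 on each of the 20 arrays: the log2 ratio, IVF-ET over AI, by IVF-ET animal, with caruncular arrays (red) left of intercaruncular arrays (blue). Circles and triangles mark the dye of the IVF-ET sample and bars the mean of 2 arrays; the caruncular ratios end at 0.28 and the intercaruncular ratios begin at 0.36.

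Of the IGF system, 12 genes were measured, and none but IGFBP2 passed the test. IGFBP1, a binding protein that the uterine epithelium secretes in ruminant pregnancy, lay the other way, with an effect of 0.10 in the caruncles and -0.34 between them, a difference of 0.44 ± 0.20 and a positive difference in 5 of 5 animals, as for 4.35% of all probes. IGFBP3, the main carrier of IGFs in blood, had nearly equal effects of 0.85 and 0.84 in caruncular and intercaruncular tissue (difference 0.01 ± 0.44), with animals from -1.70 to 1.02. IGFBP5 differed by -0.37 ± 0.23, IGFBP4 by -0.16 ± 0.09, its other probe by -0.27, and IGFBP6 by -0.18 ± 0.22. The ligands IGF1 and IGF2 differed by -0.16 ± 0.28 and -0.17 ± 0.21. Their receptors IGF1R and IGF2R, at 0.02 ± 0.18 and 0.06 ± 0.17, differed by less than their error. At an unadjusted p under 0.05, IGFBP1 was higher and IGFBP2 lower, which is 16.7% of the list beside 6.51% of all probes, and the median of the list was -0.16 beside -0.0025 over all probes.

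The other probes gave no difference past the threshold, and the next smallest adjusted p was 0.185. At an unadjusted p under 0.05, 467 probes (3.38%) were higher and 433 (3.13%) lower in the caruncular than in the intercaruncular effect. The 95% interval of the median probe reached 0.27 to either side, which bounds what 20 arrays could show. A difference past 1 was found for 9 probes (0.0651%), 3 higher (0.0217%) and 6 lower (0.0434%). For comparison, the effect in 1 area at a time passed the threshold for 0 probes in the caruncles (557, or 4.03%, at an unadjusted p under 0.05) and for 22 higher (0.159%) and 14 lower (0.101%) between them (2048, or 14.8%, at an unadjusted p under 0.05).

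**Figure D3:**
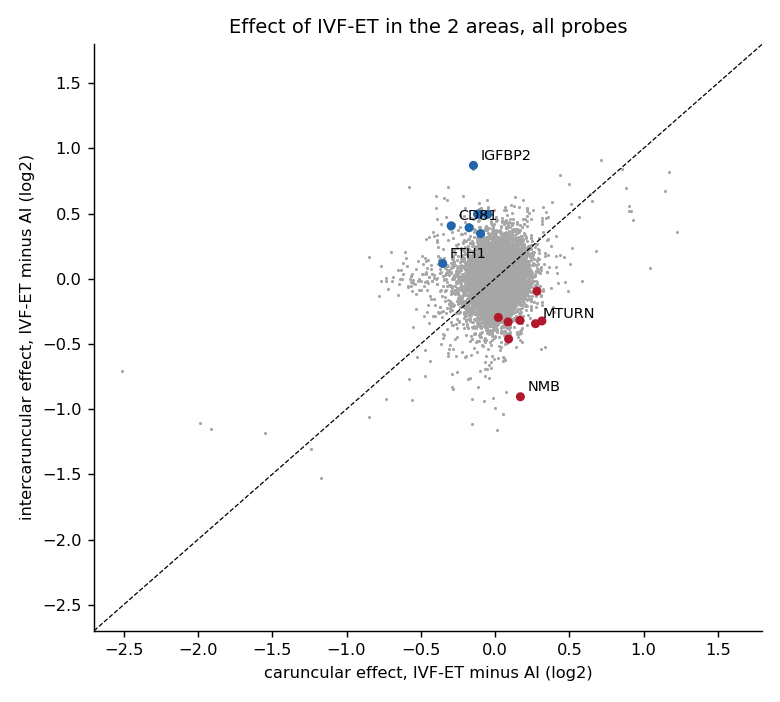
Each of the 13824 probes by its caruncular effect (x axis) and its intercaruncular effect (y axis), IVF-ET minus AI in log2 units. The dashed line marks equal effects; blue and red points are IGFBP2 and the genes with the smallest p below and above 0, and IGFBP2 lies at -0.15 and 0.87.

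Among the genes with the smallest p, 8 had a higher caruncular than intercaruncular effect. MTURN, a regulator of neural progenitor differentiation, differed by 0.62 ± 0.12 (limma adjusted p = 0.185), with caruncular ratios of -0.05 to 0.70 (median 0.29) and intercaruncular ratios of -0.84 to -0.01 (median -0.35). The ranges of MTURN overlapped only between -0.05 and -0.01, and its difference was above 0 in 5 of 5 animals. NMB, the peptide neuromedin B, had the largest of these differences, 1.08 ± 0.25 (adjusted p = 0.470), with ratios of -0.75 to 0.78 (median 0.27) in the caruncles and of -2.31 to 0.02 (median -0.59) between them. Its difference was 2.26, 1.49, 1.15, -0.06 and 0.54 in IVF-ET animals 1 to 5, so 1 animal lay near 0. SCNN1A, a subunit of the epithelial sodium channel that draws fluid from the lumen, differed by 0.64 ± 0.16, and SLC30A5, a zinc transporter, by 0.55 ± 0.13. A second probe of SLC30A5 gave -0.07.

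The other 4 act in basic processes of the cell. MED31, a subunit of the Mediator complex that links transcription factors to RNA polymerase II, differed by 0.42 ± 0.10, and SNAPC2, a subunit of the complex that starts small nuclear RNA genes, by 0.32 ± 0.08. LAMTOR4, a part of the lysosomal Ragulator complex of the mTOR pathway, differed by 0.38 ± 0.10. IP6K2, an inositol phosphate kinase, differed by 0.49 ± 0.12, and its other probe by 0.29. SNAPC2, LAMTOR4 and MTURN had the higher ratio in the caruncles in 10 of 10 pairs of arrays.

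Below 0, the genes with the next smallest p were CD81, FTH1, TGFBR2, ST3GAL6, TBX3, CALD1 and FBN1. CD81, a tetraspanin that organises membrane proteins, differed by -0.70 ± 0.14 (limma adjusted p = 0.289), with ratios of -0.61 to 0.28 (median -0.36) in the caruncles and of -0.05 to 1.01 (median 0.34) between them. FTH1, the heavy chain of ferritin, differed by -0.47 ± 0.10 (adjusted p = 0.289), and here the caruncular effect was the larger one, -0.35 against 0.12 between the caruncles. TGFBR2, a receptor for TGF-beta, differed by -0.54 ± 0.13, and its second probe by -0.39 ± 0.14. Both probes of TGFBR2 thus lay below 0, and the first had the lower ratio in the caruncles in 10 of 10 pairs. TBX3, a T-box transcription factor, and ST3GAL6, a sialyltransferase, differed by -0.60 ± 0.15 and -0.57 ± 0.14, but their second probes lay at 0.09 and 0.07.

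Without IVF-ET animal 1 in either area, 3 probes passed the threshold: IGFBP2 (-1.05), CD81 (-0.80, limma adjusted p = 0.0397) and S100G, the calcium-binding protein calbindin-D9k of uterine and gut epithelium (1.30, adjusted p = 0.0361). With all animals this probe of S100G differed by 0.96 ± 0.26, with a caruncular effect of 1.04 and an intercaruncular effect of 0.08, and by -0.39 in IVF-ET animal 1 against 1.10 to 1.67 in the other 4 animals. A second probe of S100G gave -0.06 ± 0.08.

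**Figure D4:**
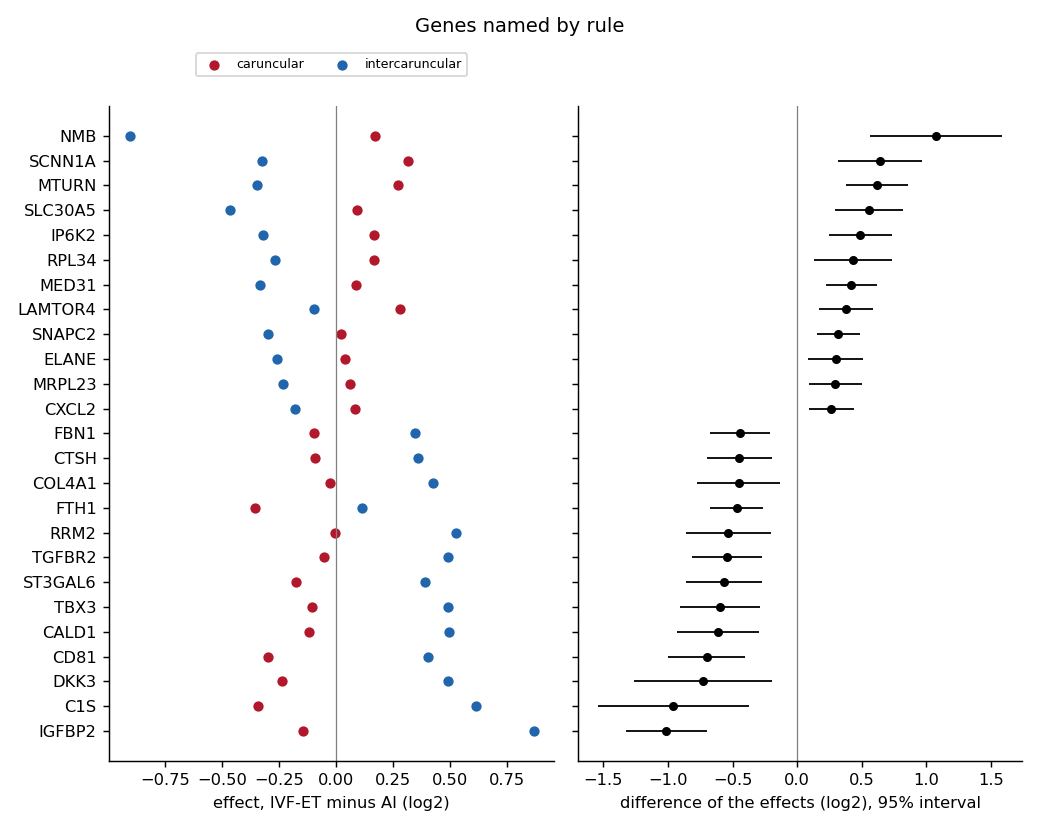
Left, the effect of IVF-ET minus AI in caruncular (red) and intercaruncular (blue) tissue for the genes named by rule; right, the difference of the 2 effects with its 95% interval, all in log2 units. Of the named genes, IGFBP2 at the bottom passed the threshold.

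Complement genes held the highest share of small p among the lists with more than 5 measured genes. Complement is the cascade of plasma and tissue proteins that marks and lyses targets. Of 17 measured genes, 0 passed the adjusted threshold, and 2 were higher and 7 lower at an unadjusted p under 0.05, which is 52.9% beside 6.51% of all probes. The median difference was -0.32 beside -0.0025 over all probes, with a median effect of -0.06 in the caruncles and 0.25 between them, and 14 of 17 genes lay below 0. The list's median was below 0 in 5 of 5 animals, between -0.41 and -0.02. Without the widest caruncular array the counts were 1 higher and 5 lower (35.3%, beside 4.73% of all probes, 2.5% higher and 2.23% lower) with a median of -0.20, and without the intercaruncular arrays of IVF-ET animal 1 they were again 2 higher and 7 lower (beside 7.88% of all probes, 4.09% higher and 3.8% lower). Without IVF-ET animal 2 they were 1 higher and 3 lower (23.5%, beside 6.43% of all probes), with a median of -0.32.

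C1S, the protease that starts the classical pathway, had ratios of -0.87 to 0.25 (median -0.37) in the caruncles and of -0.93 to 2.06 (median 0.46) between them. Its difference was -0.96 ± 0.28 (limma adjusted p = 0.720) and lay below 0 in 5 of 5 animals, from -2.12 to -0.21. Its partner C1R differed by -0.69 ± 0.31, the central component C3 by -0.47 ± 0.19 and C2 by -0.42 ± 0.16. SERPING1, which inhibits C1R and C1S, differed by -0.60 ± 0.25, with the 5 animals close to each other at -0.73 to -0.50. The other way lay C4A, the component cleaved by C1S, at 0.62 ± 0.24 (above 0 in 5 of 5 animals), and CD59, which blocks the final lytic complex, at 0.39 ± 0.18. C1QB, which macrophages make, differed by -0.38 ± 0.16. Of 17 macrophage and dendritic cell markers, 15 lay below 0 with a median of -0.11. At an unadjusted p under 0.05, 1 of them was lower, C1QB itself (5.88%, beside 6.51% of all probes). The part of such cells in the complement values was not tested. In whole tissue, fewer cells of a type and less RNA per cell cannot be told apart.

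Of 9 measured genes of MHC class I presentation, 0 passed the threshold and 2 were lower at an unadjusted p under 0.05 (22.2%, beside 6.51% of all probes, 3.13% lower), with a median of -0.20 that was below 0 in 5 of 5 animals and was -0.11 with arrays scaled to the same spread. BOLA-NC1, a non-classical class I molecule of cattle, differed by -1.02 ± 0.38 (animals -1.45 to -0.63), and its other 2 probes by -0.03 each. B2M, the light chain of class I, differed by -0.94 ± 0.39 (animals -2.12 to -0.26). TAP1, which carries peptides to class I, lay at -0.70, but this rested on 1 ratio of -5.24 on the widest caruncular array, and without that array it was -0.20. In MHC class II, 7 of 8 genes lay below 0 (median -0.17), and BOLA-DRB3 at -0.36 was the one with an unadjusted p under 0.05 (12.5%, beside 6.51% of all probes).

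Interferon-stimulated genes lay below 0 in 23 of 27 cases with a median of -0.32. At an unadjusted p under 0.05, however, 0 of them were lower and 1 (SAMHD1, 0.25) higher (3.7%, beside 6.51% of all probes). With arrays scaled to the same spread the counts were 0 higher and 6 lower (22.2%, beside 6.71% of all probes), and with 1 value per IVF-ET animal (replicate block) 1 higher and 6 lower (25.9%, beside 6.78%). The wide ratios were in the intercaruncular loop. RSAD2, an antiviral enzyme, had ratios of -1.49 to -0.05 (median -0.41) in the caruncles, where 10 of 10 were below 0, and of -5.09 to 4.54 (median 0.85) between them. MX1, a GTPase that blocks viruses, ranged from -1.08 to 0.09 in the caruncles and from -4.10 to 4.13 between them, for a difference of -1.04 with a 95% interval of -2.37 to 0.30. ISG15 differed by -0.40 (interval -1.67 to 0.87) and MX2 by -0.52 (interval -1.66 to 0.62). The median of the list by IVF-ET animal was 0.20, -1.18, -0.39, 0.02 and -0.34, so the animals did not share a direction.

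The result for these genes turned on single animals. Without IVF-ET animal 2 the median was -0.034 and without AI animal 2 it was -0.037. At an unadjusted p under 0.05, 1 of 27 was higher and 0 lower without IVF-ET animal 2 (3.7%, beside 6.43% of all probes). Without AI animal 2, 0 were higher and 0 lower (beside 5.49% of all probes). Without the intercaruncular array that holds both animals, the median was -0.17, with 1 higher and 0 lower (3.7%, beside 6.24% of all probes). Without the 2 intercaruncular arrays of IVF-ET animal 1, in contrast, 13 of 27 interferon-stimulated genes were lower and 1 higher at an unadjusted p under 0.05 (51.9%, beside 7.88% of all probes), and the median was -0.42. RSAD2 then differed by -1.53 ± 0.30 (limma adjusted p = 0.127), MX1 by -1.19 ± 0.32 (adjusted p = 0.277), MX2 by -0.93 ± 0.36 and ISG15 by -0.64 ± 0.30. None of these passed the adjusted threshold, with or without the arrays of IVF-ET animal 1. B2M and BOLA-NC1 differed by -1.06 and -1.21 without them.

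**Figure D5:**
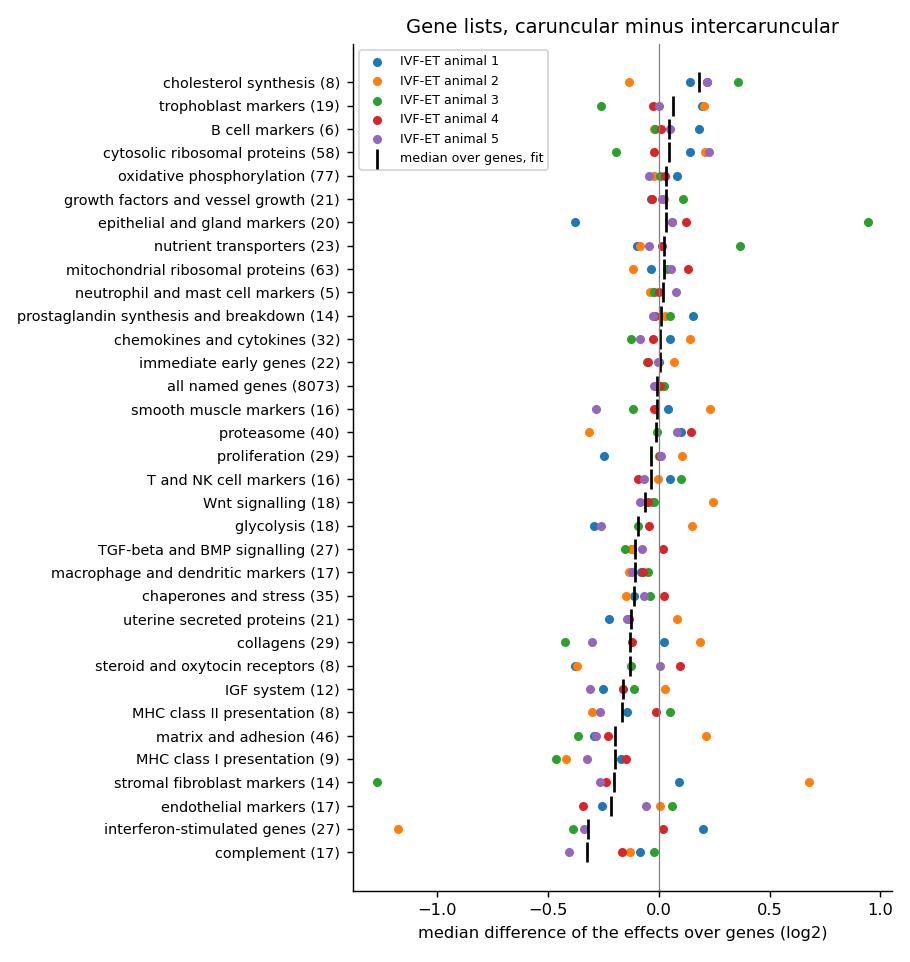
The median difference of the effects, caruncular minus intercaruncular in log2 units, over the measured genes of each list (number in brackets). Coloured points are the 5 IVF-ET animals and black bars the median over genes of the fitted differences. Complement lies at -0.32 and cholesterol synthesis at 0.18, and the points of interferon-stimulated genes and stromal markers spread widest.

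Genes of the matrix and its cells lay mostly below 0. Of 46 genes of matrix and adhesion, 39 lay below 0 (median -0.20), with 3 lower and 0 higher at an unadjusted p under 0.05, a share of 6.52% that is that of all probes (6.51%). FBN1, the microfibril protein fibrillin, differed by -0.44 ± 0.11 (limma adjusted p = 0.525) and in 10 of 10 pairs of arrays; TIMP3, an inhibitor of matrix proteases, differed by -0.39 ± 0.16 and LAMC1, a laminin chain, by -0.31 ± 0.14. Of 29 collagens, 24 lay below 0 (median -0.13), and 4 were lower at an unadjusted p under 0.05 (13.8%, beside 6.51% of all probes). Without the widest caruncular array 1 was lower (3.45%, beside 4.73% of all probes). COL4A1, of basement membranes, differed by -0.45 ± 0.16, with ratios of -0.31 to 0.38 in the caruncles and of -0.25 to 1.23 between them. COL3A1, a main fibrillar collagen, lay at -0.63 ± 0.45, with ratios of -0.84 to 0.34 in the caruncles and of -1.85 to 3.62 between them.

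The markers of stromal fibroblasts lay on the same side: 13 of 14 lay below 0 (median -0.20). This list is not separate from those above, since it shares FBN1 with matrix and adhesion and COL3A1 with the collagens. At an unadjusted p under 0.05, 2 were lower (FBN1 and DPT) and 0 higher (14.3%, beside 6.51% of all probes). Without the widest caruncular array 1 was lower (7.14%, beside 4.73% of all probes). By IVF-ET animal their median was 0.09, 0.68, -1.27, -0.24 and -0.27, so 2 of 5 animals lay above 0. Leaving out 1 animal gave medians of -0.45 (without AI animal 7) to 0.0053 (without AI animal 1) for the stromal markers, of -0.29 (without IVF-ET animal 2) to -0.08 (without AI animal 1) for matrix and adhesion, and of -0.18 (without AI animal 7) to -0.05 (without IVF-ET animal 5) for collagens. The part of stromal cell content in the matrix values was not tested. CALD1, an actin-binding protein of smooth muscle and fibroblasts, differed by -0.61 ± 0.15 (adjusted p = 0.525). The smooth muscle list, which holds CALD1, had a median of -0.01. Of its 16 genes, 1 was higher and 3 lower at an unadjusted p under 0.05 (25.0%, beside 6.51% of all probes). Without the widest caruncular array the counts were 0 higher and 1 lower (6.25%, beside 4.73% of all probes). DKK3, a secreted protein of the Dickkopf family, differed by -0.73 ± 0.26, or by -0.56 without the widest caruncular array, on which its ratio was -1.70. RRM2, a subunit of the enzyme that makes DNA precursors, differed by -0.53 ± 0.16. The 29 proliferation genes had a median of -0.03, with 0 higher and 2 lower at an unadjusted p under 0.05 (6.9%, beside 6.51% of all probes).

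Endothelial markers gave 1 higher and 4 lower of 17 at an unadjusted p under 0.05 (29.4%, beside 6.51% of all probes), with a median of -0.22 and animals from -0.34 to 0.06. With arrays scaled to the same spread they were 0 higher and 2 lower (11.8%, beside 6.71%), with a median of -0.09. The 2 receptors for vascular endothelial growth factor on the list lay on opposite sides: KDR differed by -0.45 ± 0.18 (below 0 in 5 of 5 animals) and FLT1 by 0.29 ± 0.12 (above 0 in 5 of 5 animals). By pairs of arrays, KDR had the lower ratio in the caruncles in 9 of 10, but FLT1 also did so in 4 of 10. The intercaruncular ratios of FLT1 ran from -1.30 to 0.40, with 5 of 10 above 0. ROBO4, a guidance receptor of vessels, differed by -0.43 ± 0.17. PECAM1 lay at -0.44 with, and at -0.22 without, the widest caruncular array, on which its ratio was -2.15.

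Epithelial and gland markers were 4 higher and 0 lower of 20 at an unadjusted p under 0.05 (beside 3.38% and 3.13% of all probes), with a median of 0.03. The keratins KRT8 and KRT18 of simple epithelia differed by 0.60 ± 0.23 and 0.59 ± 0.25, the tight junction protein CLDN7 by 0.50 ± 0.23 and the epithelial transcription factor EHF by 0.41 ± 0.15. In each of these 4, 4 of 5 animals lay above 0. By animal the list's median ranged from -0.38 in IVF-ET animal 1 to 0.94 in animal 3. Without the intercaruncular arrays of IVF-ET animal 1 the counts were 6 higher and 0 lower (beside 4.09% and 3.8% of all probes), with a median of 0.12. With 1 value per IVF-ET animal (replicate block) they were 2 higher and 0 lower (beside 6.78% of all probes in either direction). They were 1 higher and 0 lower without IVF-ET animal 2 (beside 6.43% of all probes). Leaving out AI animal 2 gave 0 higher and 0 lower (beside 5.49% of all probes). The median was -0.08 without IVF-ET animal 3 and 0.27 without IVF-ET animal 1, so it had no settled sign. The caruncular effect on KRT8 was 0.59 and the intercaruncular one -0.02.

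Of 21 proteins secreted by the uterus, 2 were higher and 3 lower at an unadjusted p under 0.05 (23.8%, beside 6.51% of all probes). The median was -0.13, or -0.01 with arrays scaled to the same spread. The lower ones were the lysosomal proteases CTSH (-0.45 ± 0.12, limma adjusted p = 0.577), CTSB (-0.52 ± 0.19) and CTSK (-0.69 ± 0.31), all cathepsins; the higher ones were LTF, the iron-binding lactoferrin, at 0.32 ± 0.12 and IGFBP1. CTSB and CTSK lay below 0 in 5 of 5 animals and CTSH in 4 of 5. CTSK was at -1.61 in IVF-ET animal 1, and at -0.43 ± 0.13 in the fit without the intercaruncular arrays of that animal. LTF lay above 0 in 3 of 5 animals, at -0.03, 0.70, 0.99, -0.05 and 0.01 in IVF-ET animals 1 to 5. SERPINA14, the uterine milk protein, had the widest error of the named genes: its effects were 0.64 and 0.65 in caruncular and intercaruncular tissue, its ratios ranged from -1.11 to 2.71 in the caruncles and from -3.64 to 4.22 between them, and the interval of its difference was -1.67 to 1.64.

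Trophoblast markers, which would show placental tissue in a sample, had a median of 0.06. At an unadjusted p under 0.05, 1 was higher and 1 lower of 19 (10.5%, beside 6.51% of all probes). The sign turned with the fit. Without the intercaruncular arrays of IVF-ET animal 1 the median was -0.06, with 0 higher and 1 lower (5.26%, beside 7.88% of all probes). Without IVF-ET animal 1 it was -0.02. With arrays scaled to the same spread it was 0.175, with 3 higher and 1 lower (21.1%, beside 6.71% of all probes). PRP1, a prolactin-related protein of the bovine trophoblast, differed by 0.86 ± 0.38, with effects of 1.22 in the caruncles and 0.36 between them, and was higher in 3 of 5 animals. PAG9, a pregnancy-associated glycoprotein, differed by 0.48 ± 0.29. SSLP1, a secreted seminal-vesicle Ly-6 protein, differed by -0.35 ± 0.13. Markers of T and NK cells (16 genes), B cells (6 genes) and nutrient transporters (23 genes) had 0 genes at an unadjusted p under 0.05 in either direction, beside 6.51% of all probes. Their medians were -0.04, 0.05 and 0.02. ELANE, a neutrophil protease, differed by 0.30 ± 0.10, and CXCL2, which draws neutrophils, by 0.26 ± 0.08. The 5 measured neutrophil and mast cell markers had a median of 0.02 with 2 higher (ELANE and LTF) and 0 lower (40.0%, beside 6.51% of all probes). The rest, S100A9, S100A8 and MPO, lay at -0.15, -0.03 and 0.02. Without IVF-ET animal 2 the counts were 0 higher and 0 lower (beside 6.43% of all probes).

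Genes of cholesterol synthesis all lay above 0, 8 of 8, with a median of 0.18 (median effect 0.08 in the caruncles and -0.12 between them). At an unadjusted p under 0.05, 1 was higher (12.5%, beside 6.51% of all probes). That was FDPS, which makes farnesyl diphosphate, at 0.25 ± 0.10 and above 0 in 5 of 5 animals. MSMO1, a later enzyme of the pathway, lay at 0.40 ± 0.22. The list's median was above 0 in 4 of 5 animals, and -0.14 in IVF-ET animal 2.

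Genes of the respiratory chain and ATP synthase were 7 higher and 1 lower of 77 at an unadjusted p under 0.05 (10.4%, beside 6.51% of all probes), with a median of 0.03, or -0.04 with all arrays scaled to the same spread. The subunits of complex I NDUFA1 (0.38 ± 0.14) and NDUFB11 (0.35 ± 0.14) were among the higher ones, and the ATP synthase subunit ATP5F1C (-0.52 ± 0.19) was the lower one. Without the intercaruncular arrays of IVF-ET animal 1 the counts were 1 higher and 2 lower, with 7.88% of all probes at that level. Of the ribosomal proteins, RPL34 differed by 0.43 ± 0.14 and the mitochondrial MRPL23 by 0.30 ± 0.10, both above 0 in 5 of 5 animals. The medians of their lists were 0.04 (58 genes) and 0.02 (63 genes).

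For the receptors and the prostaglandin enzyme that time the bovine cycle, the difference was bounded as follows. PGR, the progesterone receptor, differed by -0.23 with a 95% interval of -0.61 to 0.14, and ESR1, the oestrogen receptor, by 0.06 with an interval of -0.30 to 0.43. OXTR, the oxytocin receptor through which prostaglandin pulses are set off, differed by -0.16 with an interval of -0.74 to 0.42; its ratios were -0.59 to 0.24 in the caruncles and -1.13 to 2.59 between them, both ends of the second range on the arrays of IVF-ET animal 1. PTGS2, which makes the prostaglandin precursor, differed by 0.01 with an interval of -0.31 to 0.34, and its second probe by 0.07. These intervals leave room for differences of either sign.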

How the data were processed

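Two-colour cDNA arrays compared RNA of IVF-ET and AI cattle. Each spot's deposited value is a log2 ratio of its dyes, made by the authors; how background was corrected and ratios normalized is not given in the sources used here. All 331 values below -4 matched base 2 (tolerance 6e-05). The 2 spots of each of 13824 probes were averaged, and no further normalization was applied. The supplied annotation gives 8645 probes 1 symbol, 105 several and 5074 none; for genes with several probes, the one with the fewest missing values stands. Values were missing for 52 probes on 1 or more arrays.

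A generalised least squares model was fitted to each probe over the 20 arrays (limma 3.58.1, R 4.3.3), with an effect per area, 1 dye term and correlations for arrays that share an animal within and between areas. The correlations were searched from 0 upward, and that between areas was held no larger than that within an area. The correlation within an area came out at 0, its lower bound, which fixed that between areas at 0 as well. The fit thus equals ordinary least squares, and whether the shared animals link the areas was not tested by it. P-values were adjusted after Benjamini and Hochberg across the 13824 probes (threshold 0.05), and errors are SE of the fit. With these correlations at 0 they measure the spread between the 20 arrays, and each of the 5 IVF-ET and 7 AI animals is on 2 to 4 arrays, which the fit takes as independent. The number of animals limits the precision, and a sign test over 5 animals alone cannot go below a two-sided exact p of 0.0625. The same IVF-ET animals link the areas, so fits with a replicate block were alternatives; 1 of them takes 1 value per IVF-ET animal.

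The members and gene lists were chosen with earlier results of these data known. Genes were named by rule: those past the threshold, filled to 8 per direction by smallest p, per list the member with the smallest p if under 0.01, and ISG15, MX1, MX2, PGR, ESR1, OXTR, PTGS2 and SERPINA14 (OAS1, also on the rule, was not analysed here). Other list members, S100G and second probes were chosen after their values were seen.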

Additional observations from a re-analysis of the deposited data

Results flagged for a closer look

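The effect of IVF-ET on IGFBP2 differed between the areas by test (caruncular minus intercaruncular -1.01, limma adjusted p = 0.0125). That fit took arrays that share animals as independent. The call was lost with 1 value per IVF-ET animal and was kept in 3 of 12 fits without 1 animal. Single arrays were looked at in 101 groups of 10 ratios, and in 9 the highest or lowest lay far from the rest, where chance gives about 5% of groups. The groups come from the same arrays and are not independent, so the 2 shares cannot be set against each other as a test. The array of IVF-ET animal 1 and AI animal 1 was the far one in the intercaruncular loop for FBN1 (1.02), CXCL2 (0.22), DKK3 (1.78), ISG15 (-4.77), MX2 (-4.12) and OXTR (2.59). In the caruncular loop it was that of IVF-ET animal 3 and AI animal 3 for DKK3 (-1.70) and for the SD of all ratios (0.494), and that of IVF-ET animal 5 and AI animal 4 for MED31 (0.55).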

How the results depend on the processing

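IGFBP2 stayed below 0 under all 18 other settings and all 12 fits without 1 animal. Its call was kept under 15 settings, among them pairs of arrays as a replicate block (-1.01, limma adjusted p = 0.000655), and lost under 3: 1 value per IVF-ET animal as a replicate block (-1.01, adjusted p = 0.0711), only the 6 array pairs with the same animals (-1.04, adjusted p = 0.694) and arrays scaled to the same spread (-0.93, adjusted p = 0.177). Under these 3 settings 0 probes passed, with 937, 754 and 927 at an unadjusted p under 0.05. The 15 settings that kept the call are not all separate checks. With both correlations at 0, ordinary least squares and the fit without a replicate block are the main fit itself. The fits on fewer probes leave the ratios of IGFBP2 unchanged. Without 1 animal the difference was -1.09 to -0.94 and 0 to 3 probes passed. The replicate block changed no other call.

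Named genes whose difference was smaller than its SE turned sign. ISG15 (0.073) and SERPINA14 (0.11) did so with the same-animal pairs, and PTGS2 with the first spot (-0.00643). SERPINA14 also turned with the second spot (0.048) and with scaled arrays (0.30). Without 1 animal, the ranges were -1.06 to 0.042 for ISG15, -0.99 to 0.053 for MX2, -0.19 to 0.16 for ESR1, -0.27 to 0.091 for OXTR, -0.12 to 0.18 for PTGS2 and -0.27 to 0.29 for SERPINA14. Settings chosen after seeing the data, without the arrays that stand apart or with array weights (IGFBP2 -1.14), turned PTGS2 (-0.10, without the intercaruncular arrays of IVF-ET animal 1), SERPINA14 (0.053, without the widest caruncular array, and 0.42, without the intercaruncular array of IVF-ET animal 2 and AI animal 2) and ESR1 (-0.0084, without the same array). The causes were not tested. The other genes named by rule kept their direction; beside IGFBP2, CD81 and S100G passed the threshold without IVF-ET animal 1.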
